A study of Mus musculus with 15 samples.

Results

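The heat-shock and chaperone genes described here are 10 mouse genes taken by name: Hspa1a, Hspa1b, Hspa5, Hspa8, Hsp90aa1, Hsp90ab1, Hspd1, Hspe1, Hsph1 and Dnajb1. Ensembl gene identifiers were matched to symbols, and all 10 genes were found among the 48795 genes listed for each sample. Of these 10 genes, 8 passed a filter on low counts and were tested with 13600 genes in all, whereas Hspa1a and Hspa1b did not pass it. iNKT cells, T cells whose invariant TCR recognises lipids on CD1d, had been sorted from thymus, spleen, mLN and iLN of WT C57BL/6 mice aged 6 weeks, and polyA RNA was sequenced. The sort kept cells that bound the CD1d tetramer and a TCRβ antibody and removed cells with B220, CD11b, CD11c or CD8. There were 4 samples each of thymus, spleen and mLN and 3 of iLN (replicates 2 to 4), with replicates 1 and 2 in batch 2 and replicates 3 and 4 in batch 1. LNs alone were digested at 37 °C, for 15 min, while thymus and spleen were strained, so that tissue and warm digestion cannot be told apart in any comparison of an LN with another tissue.

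Total expected counts ran from 1152702 (thymus replicate 2) to 8161474 in thymus, from 4919511 to 8670570 in spleen, from 4740370 to 7914302 in mLN and from 4080550 to 5360793 in iLN. RSEM gives expected counts, in which a fragment with more than 1 possible gene is divided among those genes. Levels of a gene across samples are given as CPM after TMM normalization, and levels of different genes are set side by side as TPM, which corrects for gene length. Sums over marker lists are in CPM and so weigh long genes more. Lists of values follow the order of replicates, 1 to 4 in thymus, spleen and mLN and 2 to 4 in iLN.

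The sorted cells carried the transcripts that define iNKT cells. Zbtb16, which encodes the transcription factor PLZF, lay between 78.9 and 269 CPM over the 15 samples, Cd3e between 862 and 1509 CPM, and Trav11, the V segment of the invariant TCR, between 145 and 335 CPM. The 12 genes of iNKT and T cell identity summed to between 3684 CPM (spleen replicate 1) and 6251 CPM (thymus replicate 4). In LNs against spleen and thymus DESeq2 called 4 of these genes and limma 1. Of their 11 tested genes, edgeR called 1 higher and 3 lower in LNs than in spleen and thymus, beside 1.72% of all genes. Zbtb16 was the higher gene (179 to 269 CPM in LNs and 78.9 to 178 CPM in spleen and thymus, no overlap), at 0.71 (SE 0.14, edgeR adjusted p = 0.00538) on the log2 scale. Klrb1c (NK1.1) was lower (131 to 193 and 247 to 514 CPM, no overlap), at −1.21 (SE 0.12, adjusted p = 4.4e-06), and so was Tbx21 (T-bet, 16.7 to 71.1 and 26.7 to 112 CPM, overlapping), at −1.04 (SE 0.21, adjusted p = 0.00725). The other lower gene was Il2rb, named after its values were seen. When each of the 15 samples was left out in turn, Klrb1c was called in 15 of the 15 fits. Zbtb16 was called in 4 of them (without iLN replicate 2, mLN replicate 4 or spleen replicate 1 or 2), with adjusted p from 0.00111 to 0.02, and Tbx21 in 4 (without iLN replicate 3, mLN replicate 1, spleen replicate 2 or thymus replicate 1), with adjusted p from 0.0042 to 0.0211. With the replicate block in place of the batch term Tbx21 was not called (adjusted p = 0.0155). The log2 fold changes were 0.74 in batch 1 and 0.61 in batch 2 for Zbtb16, −1.37 and −1.02 for Klrb1c, and −1.07 and −0.99 for Tbx21, of which Klrb1c in batch 1 was called.

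Chaperones of the HSP70 family bind unfolded stretches of protein and release them in an ATP cycle that J-domain proteins start and HSP110 proteins reset. HSP90 proteins finish the folding of kinases, steroid receptors and other clients, and HSP60 with HSP10 forms a folding chamber in mitochondria. Heat and other stress free the transcription factor HSF1 to bind heat shock elements and raise the inducible members within minutes, whereas unfolded protein in the endoplasmic reticulum (ER) raises Hspa5 through ATF6 and XBP1. The inducible members are widely used as marks of stress during the preparation of single cells, and constitutive members such as Hspa8 and Hsp90ab1 are abundant in lymphocytes at rest and rise when T cells are activated.

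Hspa8 was the member with the highest level per length in these cells, with a mean of 1077 TPM over the 15 samples (657 to 1922), rank 80 among the listed genes. Hsp90ab1 followed with a mean of 492 TPM (276 to 920.2) and Hspa5 with 213 TPM (148 to 334). Hspe1 had a mean of 115 TPM (65.9 to 214), Hsp90aa1 of 76.8 TPM (40.2 to 119) and Hspd1 of 73.7 TPM (37 to 111). At the lower end stood Hsph1 with 60.5 TPM (21.8 to 128) and Dnajb1 with 33.2 TPM (15.02 to 74.9). Along this order from Hspa8 to Dnajb1 the range of each gene over the samples overlapped that of the next. The stress-inducible Hspa1a and Hspa1b were far under all others, with means of 0.269 and 0.239 TPM and no sample over 1.59 TPM.

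**Figure D1:**
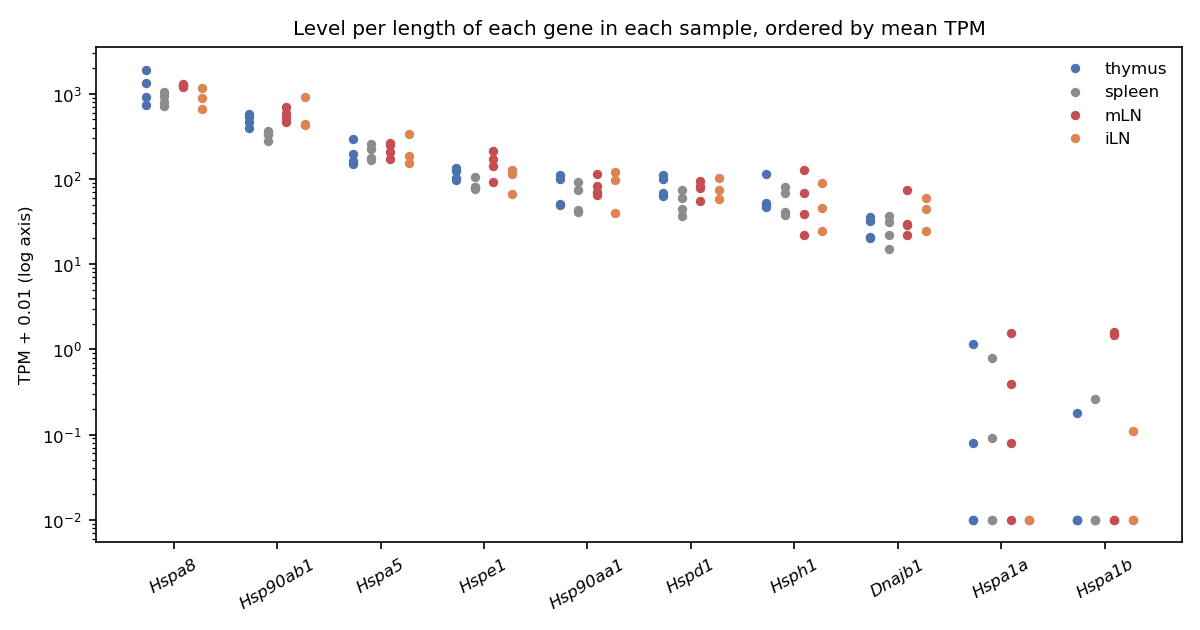
Level per length (TPM plus 0.01, log axis) of the 10 genes, ordered by mean TPM, with 1 point per sample colored by tissue. Hspa8 leads with a mean of 1077 TPM, 8 genes lie between 15.02 and 1922 TPM in every sample, and Hspa1a and Hspa1b lie at or under 1.59 TPM.

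edgeR called 0 tested members between tissues, whereas DESeq2, and edgeR with no filter on low counts, called Hsp90ab1 in thymus, mLN and iLN against spleen. The members were not tested together as a set. In mLN against spleen the fitted change was above 0 for 8 of the 8 tested members, with a median of 0.47 on the log2 scale beside 0.00 over all genes tested. The count was 7 of 8 in thymus against spleen (median 0.44 beside −0.01) and 7 of 8 in iLN against spleen (median 0.15 beside 0.01). With log2(TPM + 1) in place of counts, mLN against spleen gave 7 of 8 above 0, since Hsph1 turned to −0.04, and with DESeq2 the count was 8 of 8 in each of these 3 comparisons. Within batch 1 the counts for mLN, thymus and iLN over spleen were 7, 6 and 6 of 8, and within batch 2 they were 6, 8 and 5. In LNs against spleen and thymus it was 7 of 8 with a median of 0.15, but 3 of 8 in batch 2 alone, where the median was −0.11. These comparisons share the 4 spleen samples, and the comparisons with thymus share the 4 thymus samples. Nor are the members independent of each other, so that 8 of 8 is not 8 separate results. Among the tested members Pearson's r over the 15 samples ran from −0.15 (Hspd1 with Dnajb1) to 0.81 (Hsp90ab1 with Hspd1). In bulk RNA of a sorted population, fewer cells that express a gene and less RNA of it per cell cannot be told apart.

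A gene was called at an adjusted p under 0.01 and a fold change over 1.5. In LNs against spleen and thymus, edgeR called 0 of the 8 tested members, beside 1.72% of all genes tested (234 genes). Of these members, 1 had an unadjusted p under 0.05, beside 17.6% of all genes, and DESeq2 (which called 3.3% of its genes) and limma called 0. At an adjusted p under 0.05 alone the count was 1, Hsp90ab1, beside 4.26% of all genes. A p that misses the threshold does not show that a member was equal between tissues.

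edgeR also called 0 members in each of the 6 pairs of tissues, and limma 0. In thymus against spleen the share of all genes called was 1.32%, and 3 members had an unadjusted p under 0.05, beside 10.6% of all genes. DESeq2 called 1 member there, Hsp90ab1, beside 3.02% of its genes, and an adjusted p under 0.05 alone also gave 1, beside 2.6%. For mLN against spleen the share was 0.654%, with 5 members at an unadjusted p under 0.05 (beside 12.2% of all genes), 1 called by DESeq2 beside 1.83% and 1 at an adjusted p under 0.05 alone beside 1.37%. The share for iLN against spleen was 1.55%, with 2 members at an unadjusted p under 0.05 (beside 16.4% of all genes), 1 called by DESeq2 beside 4.23% and 1 at an adjusted p under 0.05 alone beside 3.9%. In these 3 comparisons the member was Hsp90ab1.

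Between the tissues other than spleen, edgeR, DESeq2 and limma called 0 members. In mLN against thymus edgeR called 1.6% of all genes, 0 members had an unadjusted p under 0.05 (beside 13.5% of all genes), DESeq2 called 0 members beside 2.55% of its genes, and 0 members stood at an adjusted p under 0.05 alone beside 2.85%. For iLN against thymus the share was 1.5%, 1 member, Hspa8, had an unadjusted p under 0.05 (beside 16.5%), DESeq2 called 0 beside 3.62%, and 0 had an adjusted p under 0.05 beside 3.44%. For iLN against mLN it was 0.471%, 0 members had an unadjusted p under 0.05 (beside 13.8%), DESeq2 called 0 beside 2.25%, and 0 had an adjusted p under 0.05 beside 1.35%.

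**Figure D2:**
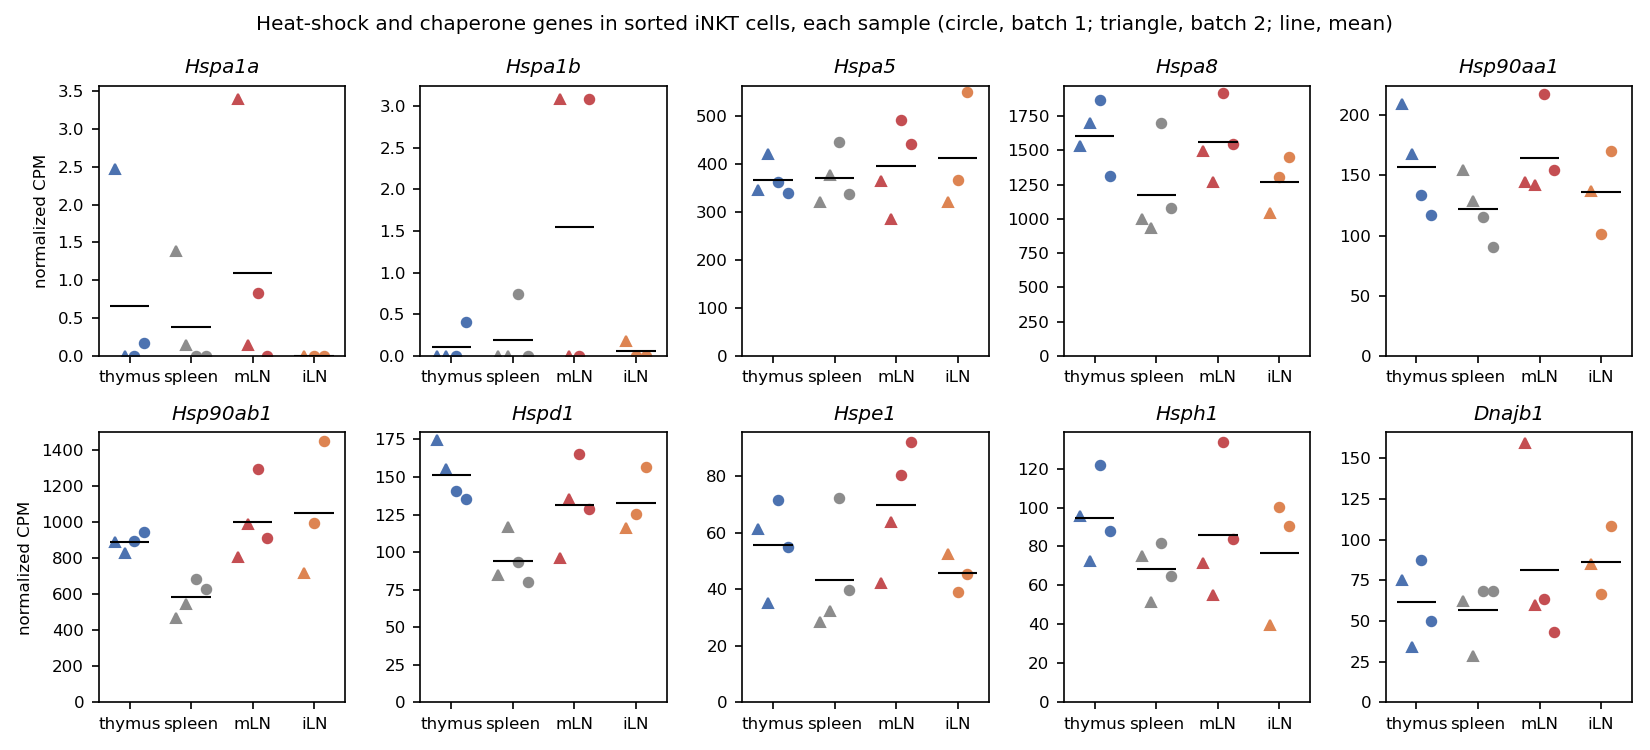
Normalized CPM of each of the 10 genes in the 15 samples by tissue (circles, batch 1; triangles, batch 2; line, mean of the tissue), each panel on its own linear axis from 0. All 4 spleen samples of Hsp90ab1 lie under the 11 samples of the other tissues, and Hspd1 of all 4 thymus samples lies above that of all 4 spleen samples, whereas all other pairs of tissues overlap.

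Hspa1a and Hspa1b encode the same inducible cytosolic HSP70 and lie beside each other on chromosome 17 (Hspa1a 17:34969190-34972156 and Hspa1b 17:34956436-34959238 of GRCm38, minus strand). Of the read-length windows of Hspa1a transcripts, 46.9% occur in Hspa1b, and 49.7% of those of Hspa1b occur in Hspa1a, so that the division of fragments between the genes is uncertain and their counts were also summed. The summed expected counts were 20, 0, 0 and 3 in thymus, 14, 1, 3 and 0 in spleen, 50, 1, 4 and 16 in mLN and 1, 0 and 0 in iLN. Normalized, they came to 2.47, 0, 0 and 0.569 CPM in thymus and 1.38, 0.150, 0.748 and 0 CPM in spleen. The mLN samples held 6.48, 0.145, 0.832 and 3.08 CPM and the iLN samples 0.179, 0 and 0 CPM. In CPM mLN replicate 1 thus stood highest, mLN replicate 4, thymus replicate 1 and spleen replicate 1 followed, and 11 samples held 4 counts or fewer, with every tissue reaching down to 0 or 1 count.

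By gene, Hspa1a had counts in 7 samples (67.1 in all, highest 3.40 CPM in mLN replicate 1) and Hspa1b in 5 samples (45.9 in all, highest 3.08 CPM in mLN replicate 1). Pooled over a tissue group, the pair reached 1.81 CPM (95% exact Poisson interval 1.42 to 2.28, 72 counts) in LNs and 0.930 CPM (95% exact Poisson interval 0.667 to 1.26, 41 counts) in spleen and thymus. These intervals cover counting error only, and mLN replicate 1 alone gave 50 of the 72 counts of LNs. Without it LNs held 0.687 CPM (95% exact Poisson interval 0.431 to 1.04, 22 counts), under the pooled value of spleen and thymus, and the direction also turned in the edgeR fit of the summed pair with all samples, to −0.45 on the log2 scale (adjusted p = 0.864). By gene, without that sample, Hspa1b pooled to 0.531 CPM in LNs and 0.116 CPM in spleen and thymus, and Hspa1a to 0.156 and 0.814 CPM. For the pair, the 3 iLN samples pooled to 0.0662 CPM with an upper bound of 0.369 CPM. As a one-sided limit, unlike the two-sided intervals, a count of 0 in a sample allows up to 3 counts, which is between 0.296 CPM in spleen replicate 1 and 2.21 CPM in thymus replicate 2. At its highest, in mLN replicate 1, the summed pair was 0.239% of the TPM of Hspa8 in the same sample.

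Neither gene was tested in the fit above. In the 7 alternative settings that fitted Hspa1a and the 6 that fitted Hspa1b (no filter, DESeq2, batch 2 alone, the summed pair for Hspa1a, and fits without an iLN sample), 0 calls were made in any comparison, with a lowest adjusted p of 0.204. DESeq2 gave an adjusted p for all 10 members in mLN against thymus alone. In each other comparison it gave one for 8 members, so that it could not call the pair. The promoter of Hspa1b is shown because this gene is a standard readout of HSF1, whose activity was not measured here. RefSeq (GRCm38.p6) gives the 250 bases before and 50 bases after the transcription start, and 10 such windows were listed for 7 of the 10 members, with none for Hspa8, Hsp90aa1 and Hsp90ab1. Capitals mark, on both strands, a heat shock element of 2 units (GAA and TTC parted by any 2 bases) or of 3 alternating units of GAA and TTC spaced by 2 bases, the TATA box TATAAA, the CCAAT box, and the ER stress element of CCAAT, 9 bases and CCACG. The window of Hspa1b (chr17:34959189-34959488, minus strand) holds a 2-unit heat shock element 104 bases and a reversed CCAAT box 67 bases before the start, and 296 of its 300 positions (98.7%) equal those of Hspa1a.
Hspa1b: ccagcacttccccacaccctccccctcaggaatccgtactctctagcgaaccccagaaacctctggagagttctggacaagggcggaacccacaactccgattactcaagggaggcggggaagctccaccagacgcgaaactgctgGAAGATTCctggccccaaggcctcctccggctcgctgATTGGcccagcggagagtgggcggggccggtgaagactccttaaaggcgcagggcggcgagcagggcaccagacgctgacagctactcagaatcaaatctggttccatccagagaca
Of 32851 promoters, 7.86% hold a 2-unit heat shock element, 0.603% a 3-unit one, 13.6% the TATA box, 37.4% the CCAAT box and 0.119% the ER stress element. A match of letters is a description and not a bound site.

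Hspa8 (chromosome 9, 40800984 to 40810087 of GRCm38) encodes HSC70, the constitutive cytosolic HSP70. Its level was 1531, 1699, 1867 and 1311 CPM in thymus and 997, 933, 1699.8 and 1079 CPM in spleen. It was 1496, 1270.4, 1919.8 and 1543 CPM in mLN and 1046, 1303 and 1449.8 CPM in iLN. Spleen was low in 3 of its samples, but spleen replicate 3 reached the thymus and mLN samples, and in CPM all tissues overlapped. In TPM mLN (1185 to 1311) lay above spleen (716 to 1045) and iLN (657 to 1168), in comparisons where edgeR called 0.654% and 0.471% of all genes, and the other pairs of tissues overlapped. Between LNs and spleen and thymus the log2 fold change was 0.00 (SE 0.12, edgeR adjusted p = 0.995). The values of mLN and of thymus over spleen were 0.41 (SE 0.16, adjusted p = 0.254) and 0.47 (SE 0.16, adjusted p = 0.173), and that of iLN over thymus was −0.41 (SE 0.17, adjusted p = 0.237). The fit by batch gave 0.04 in batch 1 and −0.06 in batch 2 for LNs against spleen and thymus.

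The counts of Hspa8 are uncertain in size. Gm26825, a lincRNA gene on chromosome 5 named after its values were seen, shares 26.1% of the read-length windows of Hspa8 on the opposite strand, and 69.4% of the windows of Gm26825 occur in Hspa8. Over the 15 samples it held 101949 counts, between 0.859 and 0.938 times those of Hspa8 in each sample. How RSEM divided these fragments was not tested. When both genes were summed the level lay between 1786 and 3676 CPM, and the log2 fold change of LNs over spleen and thymus was 0.01, in place of 0.00.

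Hspa5 (chromosome 2, 34771970 to 34777547) encodes BiP, the HSP70 of the ER and the usual readout of the unfolded protein response. Its window (chr2:34771840-34772139, plus strand) is shown because BiP is the member with a regulator of its own, and it holds 4 CCAAT boxes, of which the box 65 bases before the start begins an ER stress element, with no heat shock element of either form.
Hspa5: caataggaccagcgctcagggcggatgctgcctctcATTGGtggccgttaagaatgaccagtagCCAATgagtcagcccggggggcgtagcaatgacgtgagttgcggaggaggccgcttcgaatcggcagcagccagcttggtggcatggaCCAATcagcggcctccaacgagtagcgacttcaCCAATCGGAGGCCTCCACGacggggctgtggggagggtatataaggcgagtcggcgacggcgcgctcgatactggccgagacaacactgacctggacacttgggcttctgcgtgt
Levels of Hspa5 were 346, 421, 363 and 339.6 CPM in thymus and 320.1, 377, 447 and 337 CPM in spleen. In mLN they were 364, 286, 492 and 442 CPM and in iLN 322, 367 and 549 CPM. The highest value belonged to iLN replicate 4 and the lowest to mLN replicate 2, so that LNs spanned the range of spleen and thymus. The log2 fold change of LNs over spleen and thymus was 0.09 (SE 0.13, edgeR adjusted p = 0.774), with 0.31 in batch 1 and −0.18 in batch 2, and without iLN replicate 4 it was −0.02. In the 6 pairs of tissues the log2 fold change of Hspa5 lay between 0.00 and 0.11.

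Hsp90ab1 (chromosome 17, 45567775 to 45573271) encodes the constitutive cytosolic HSP90 and was the member with the clearest separation of a tissue. Its level was 468, 543, 682 and 631 CPM in spleen and 891, 828, 892 and 945 CPM in thymus. In mLN it was 806, 989.7, 1292 and 909 CPM, and in iLN 715, 993 and 1446 CPM. All 4 spleen samples lay under all 11 other samples, while thymus, mLN and iLN overlapped. The mean (± SD) of spleen was 581 ± 94.7 CPM, that of thymus 889 ± 47.6, that of mLN 999 ± 209 and that of iLN 1051 ± 369 CPM.

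The log2 fold change of Hsp90ab1 in mLN over spleen was 0.79 (SE 0.15, edgeR adjusted p = 0.0105). That of iLN over spleen was 0.78 (SE 0.17, adjusted p = 0.0106). Thymus over spleen gave 0.63 (SE 0.15, adjusted p = 0.0314), and all 3 comparisons were without overlap, while edgeR called 0.654%, 1.55% and 1.32% of all genes in them. These values passed the fold change of 1.5 but not the adjusted p of 0.01. DESeq2 called all 3, as did edgeR with no filter on low counts, and edgeR with RLE factors or with at least 10 counts in every sample called mLN and iLN over spleen. Leaving out iLN replicate 2 gave a call in mLN (adjusted p = 0.00683) and iLN (0.00693) over spleen, and leaving out iLN replicate 4 gave a call in mLN (0.00361) and thymus (0.00918) over spleen. Over all 28 alternatives the adjusted p ran from 7.0e-05 to 0.346 in mLN, from 0.00034 to 0.538 in iLN and from 0.00433 to 0.792 in thymus against spleen. Within batches the log2 fold changes over spleen had the same direction, namely 0.73 in batch 1 and 0.82 in batch 2 for mLN, 0.87 in batch 1 and 0.48 in batch 2 for iLN and 0.47 in batch 1 and 0.75 in batch 2 for thymus.

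The contrast of LNs with spleen and thymus gave Hsp90ab1 0.47 (SE 0.11, edgeR adjusted p = 0.0224) on the log2 scale, with 0.56 in batch 1 and 0.27 in batch 2. LNs spanned 715 to 1446 CPM with a median of 989.7, and spleen and thymus spanned 468 to 945 CPM with a median of 755, so that these 2 groups overlapped. Against thymus alone the log2 fold change of Hsp90ab1 was 0.16 (SE 0.15, adjusted p = 0.74) in mLN and 0.15 (SE 0.17, adjusted p = 0.715) in iLN. Per length, Hsp90ab1 spanned 276 to 362 TPM in spleen and 391 to 573 TPM in thymus. None of its read-length windows occurs in another gene.

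Marker genes of other cells also stood higher in some spleen samples than in other tissues, and their part in the level of Hsp90ab1 was not tested. The 6 red cell markers, of which Hbb-bs had the highest mean level per length (34.4 TPM), summed to 46.5, 99.9, 117 and 23.999 CPM in spleen and 14.7, 10.3, 14.3 and 1.71 CPM in thymus. In mLN they summed to 1.43, 0.725, 0.624 and 2.31 CPM and in iLN to 4.84, 1.35 and 0.513 CPM. Of the 5 tested, 2 (Hbb-bs and Hbb-bt) were called lower in LNs than in spleen and thymus, with Hbb-bs at 0 in all mLN samples (Hbb-bt was not called without spleen replicate 3, adjusted p = 0.0101). All 4 spleen samples were thus above the others on this list. In mLN against spleen edgeR called 3 of the 5 lower (Hbb-bs, Hbb-bt and Hba-a2), and in iLN against spleen 1 (Hbb-bs). DESeq2 called 4 and limma 3 in LNs against spleen and thymus, 4 and 4 in mLN against spleen, and 3 and 3 in iLN against spleen. In mLN against thymus edgeR called Hbb-bs lower (adjusted p = 0.00583, and in 8 of the 15 fits without 1 sample), DESeq2 called 2 genes and limma 0. With 1 sample left out, mLN against spleen was called in 15 of 15 fits for Hbb-bs, in 4 for Hbb-bt (without any 1 of the iLN samples or thymus replicate 4, adjusted p from 0.00755 to 0.0467) and in 4 for Hba-a2 (without any 1 of the iLN samples or thymus replicate 3, adjusted p from 0.00315 to 0.0343). iLN against spleen was called in 11 for Hbb-bs (not without any 1 of the iLN samples or spleen replicate 3, adjusted p from 0.000254 to 0.0174). In thymus against spleen edgeR called 0, with 4 at an unadjusted p under 0.05, 0 called by DESeq2 and 1 by limma (Hba-a1). Hba-a1 and Hba-a2 were named after their values were seen.

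The 8 B cell markers summed to 362, 199.8, 227 and 245 CPM in spleen and 145, 89.8, 144 and 139.6 CPM in thymus. They summed to 144, 198, 203 and 178 CPM in mLN and 221, 226 and 188 CPM in iLN. Ighm had the highest mean level per length (162 TPM), and Ms4a1 was highest in spleen replicate 1 (31.2 CPM). The 12 myeloid and dendritic cell markers summed to 88.4, 39.1, 21.7 and 21.2 CPM in spleen, against 8.15, 19.1, 10.7 and 16.7 CPM in thymus. Their sums were 28.01, 40.6, 35.4 and 19.5 CPM in mLN and 13.6, 26.5 and 16.2 CPM in iLN, and spleen replicate 1 was again the highest, with 43.1 CPM of Lyz2. Lyz2 also had the highest mean level per length of this list (9.997 TPM), and Itgam was at 0 in 9 samples. In CPM, the scale of these sums, Zbtb46 had a higher mean than Lyz2 (11.2 against 7.81 CPM). Zbtb46 had counts in all 15 samples, with 5.31 CPM as its lowest value. In LNs against spleen and thymus edgeR, DESeq2 and limma each called 0 genes of the B cell list (5 tested, 0 with an unadjusted p under 0.05) and of the myeloid list (5 tested, 1 with an unadjusted p under 0.05). In thymus against spleen, where spleen is not pooled with thymus, 0 of the 5 B cell genes were above 0, edgeR called 0 of them (4 at an unadjusted p under 0.05), limma 0 and DESeq2 1 (Ighm). edgeR called Lyz2 of the myeloid list lower in thymus than in spleen (0 to 0.735 CPM and 2.64 to 43.1 CPM, adjusted p = 0.00997), but in 3 of the 15 fits that left out 1 sample (without iLN replicate 2, mLN replicate 1 or spleen replicate 4, adjusted p over the 15 from 0.00514 to 0.0575), and not with RLE factors, limma, the replicate block or a batch alone, whereas DESeq2 and edgeR with no filter or no batch term called it. The lowest adjusted p of these lists in LNs against spleen and thymus belonged to Ighm (135 to 217 CPM in LNs, 76.4 to 233 in spleen and thymus) with Cr2 (0.832 to 11.7 and 1.38 to 20.04 CPM), and to Lyz2 (0.538 to 14.98 and 0 to 43.1 CPM) with Mpeg1 (0 to 16.3 and 0 to 3.95 CPM).

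Of the stromal and endothelial markers, Pecam1, which T cells also express, had the highest mean level per length (33.4 TPM), with 65.9 to 102 CPM in LNs and 26.5 to 57.1 CPM in spleen and thymus. Its log2 fold change was 0.79 (SE 0.19, edgeR adjusted p = 0.0183), and it was called without thymus replicate 1 (adjusted p = 0.00912). Of the 8 genes on this list, Col3a1, Pdgfrb and Pdpn were at 0 in every sample, and Epcam spanned 0 to 3.85 CPM in LNs and 0 to 2.48 CPM in spleen and thymus. edgeR called 0 of its 2 tested genes in LNs against spleen and thymus (1 at an unadjusted p under 0.05), and limma called 0 and DESeq2 1 (Pecam1). Of the 7 genes listed as markers of immature thymocytes and CD8 T cells, Cd1d1 had the highest mean level per length (10.2 TPM). Cd1d1 did not follow the thymus: it was highest in spleen replicate 1 (27.7 CPM), and its log2 fold change of thymus over spleen was −0.72. Rag1 was at 0 in every LN sample and spanned 5.51 to 22.1 CPM in thymus. Cd8a spanned 0.342 to 7.39 CPM in LNs and 0.498 to 20.6 CPM in spleen and thymus. edgeR called 0 of the 5 tested genes of this list in LNs against spleen and thymus (1 at an unadjusted p under 0.05), DESeq2 1 (Rag1) and limma 0. Without pooling, edgeR called Rag1 higher in thymus than in spleen (0 to 0.150 CPM, adjusted p = 0.00118), mLN (adjusted p = 0.000628) and iLN (adjusted p = 0.00339). The call against mLN was made in 15 of the 15 fits that left out 1 sample. That against spleen was made in 14 (not without thymus replicate 1, adjusted p = 0.0103). That against iLN was made in 9 (not without iLN replicate 2 or 4 or any 1 of the thymus samples, adjusted p up to 0.0239). The part of thymocytes in the levels of Hsp90ab1 and Hspd1 in thymus was not tested.

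Hsp90aa1 (chromosome 12, 110690605 to 110702728) encodes the stress-inducible cytosolic HSP90. It stood at 209, 168, 134 and 117 CPM in thymus and 154, 129, 115 and 90.1 CPM in spleen. Values in mLN were 144, 142, 218 and 154 CPM and in iLN 137, 101.3 and 170.3 CPM. In mLN 3 samples lay close together and mLN replicate 3 above them, thymus replicate 1 was next, and every pair of tissues overlapped. The log2 fold change of LNs over spleen and thymus was 0.15 (SE 0.16, edgeR adjusted p = 0.703), with 0.47 in batch 1 and −0.23 in batch 2. Over spleen, mLN stood at 0.45 (SE 0.21, adjusted p = 0.401) and thymus at 0.36 (SE 0.21, adjusted p = 0.642). Of the read-length windows of Hsp90aa1, 37.8% also occur in 3 other genes, which held 42.7, 2.59 and 233 counts over the 15 samples. Its level relative to Hsp90ab1 was low per length, with a mean of 76.8 against 492 TPM.

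Hspd1 (HSP60, chromosome 1, 55077835 to 55088243) and Hspe1 (HSP10, chromosome 1, 55088132 to 55091307) form the folding chamber of the mitochondrial matrix and are transcribed in opposite directions from a shared promoter. Their annotated transcripts overlap by 112 bases, and whether strand was used in counting is not given, so that fragments of the overlap cannot be assigned with certainty. Hspe1 is shown (chr1:55087898-55088197, plus strand) because its window holds a heat shock element, in which 3-unit matches overlap between 89 and 72 bases before the start. The same element lies in a window of Hspd1 (entry 2, minus strand), read from the other strand.
Hspe1: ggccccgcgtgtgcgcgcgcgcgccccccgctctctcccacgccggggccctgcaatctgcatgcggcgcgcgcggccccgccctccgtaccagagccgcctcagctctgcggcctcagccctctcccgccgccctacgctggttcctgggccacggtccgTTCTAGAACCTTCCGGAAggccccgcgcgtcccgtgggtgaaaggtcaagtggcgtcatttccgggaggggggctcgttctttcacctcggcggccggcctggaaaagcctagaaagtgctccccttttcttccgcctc
Hspd1 stood at 175, 155, 140.5 and 135 CPM in thymus and 84.7, 117, 93.7 and 80.03 CPM in spleen. It stood at 96.1, 136, 166 and 129 CPM in mLN and 116, 126 and 157 CPM in iLN. In CPM all 4 thymus samples lay above all 4 spleen samples, and spleen replicate 2 was the only spleen sample within the range of the LNs, which spanned 96.1 to 166 CPM. In TPM thymus (62.9 to 111) and spleen (37 to 74.9) overlapped. The log2 fold change of thymus over spleen was 0.69 (SE 0.18, edgeR adjusted p = 0.0527), beside 1.32% of all genes called. It lay between 0.60 and 0.84 when each sample was left out (adjusted p from 0.0269 to 0.223), and was 0.66 in batch 1 and 0.70 in batch 2.

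Over spleen, Hspd1 stood at 0.48 (SE 0.18, adjusted p = 0.249) in mLN and 0.50 (SE 0.20, adjusted p = 0.204) in iLN, and the contrast of LNs with spleen and thymus gave 0.15 (SE 0.14, adjusted p = 0.65), with 0.39 in batch 1 and −0.16 in batch 2. Hspe1 had 61.3, 35.3, 71.6 and 54.8 CPM in thymus and 28.3, 32.3, 72.3 and 39.7 CPM in spleen. It had 42.3, 63.8, 80.5 and 92.3 CPM in mLN and 52.6, 39.01 and 45.5 CPM in iLN. For Hspe1 the tissues overlapped, with mLN replicate 4 highest and spleen replicate 1 lowest. The log2 fold change of Hspe1 in LNs over spleen and thymus was 0.19 (SE 0.20, edgeR adjusted p = 0.689), with 0.01 in batch 1 and 0.45 in batch 2, and was −0.01 without iLN replicate 2. mLN over spleen was 0.71 (SE 0.27, adjusted p = 0.252). Of the read-length windows of Hspd1, 22.2% occur in Hspd1-ps3 (2.99 counts over the 15 samples), and 10.8% of the windows of Hspe1 occur in other genes.

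Hsph1 (chromosome 5, 149614287 to 149636376) encodes HSP110, the nucleotide exchange factor of HSP70 and an HSF1 target. The window of its second RefSeq start (chr5:149636266-149636565, minus strand) holds a 3-unit heat shock element from 15 to 27 bases after the start and 2 CCAAT boxes.
Hsph1: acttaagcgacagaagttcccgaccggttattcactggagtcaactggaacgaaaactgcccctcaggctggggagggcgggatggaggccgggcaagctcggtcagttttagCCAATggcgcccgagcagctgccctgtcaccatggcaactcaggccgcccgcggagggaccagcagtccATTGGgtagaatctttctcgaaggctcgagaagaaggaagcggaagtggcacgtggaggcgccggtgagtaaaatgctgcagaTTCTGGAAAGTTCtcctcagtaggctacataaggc
Hsph1 came to 95.5, 72.8, 122 and 88.03 CPM in thymus and 75.2, 51.7, 81.98 and 64.9 CPM in spleen. It came to 71.4, 54.99, 134 and 83.99 CPM in mLN and 39.7, 100.2 and 90.5 CPM in iLN. mLN replicate 3 was highest and iLN replicate 2 lowest, so that LNs spanned the whole range of the data. LNs over spleen and thymus gave −0.10 (SE 0.17, edgeR adjusted p = 0.838) on the log2 scale. The direction turned with the batch, with 0.20 in batch 1 and −0.56 in batch 2, and it was 0.04 without iLN replicate 2. Thymus over spleen was 0.46 (SE 0.23, adjusted p = 0.526).

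Dnajb1 (chromosome 8, 83608193 to 83612653) encodes HSP40, the J-domain partner of inducible HSP70. Thymus samples had 75.4, 33.8, 87.6 and 49.9 CPM and spleen samples 62.5, 28.4, 68.3 and 68.7 CPM. mLN samples had 159, 59.6, 63.5 and 43.2 CPM and iLN samples 85.1, 66.4 and 108 CPM. Dnajb1 was highest in mLN replicate 1, the sample with the most Hspa1a and Hspa1b counts, while the other mLN samples lay within the range of spleen and thymus and 2 of the 3 iLN samples (85.1 and 108 CPM) near or above its top of 87.6 CPM. LNs over spleen and thymus gave 0.49 (SE 0.28, edgeR adjusted p = 0.384) on the log2 scale, the largest value among the 8 tested members. The value rested on mLN replicate 1, without which it was 0.19, and it was −0.02 in batch 1 and 0.93 in batch 2. The window of its first RefSeq entry holds 2 CCAAT boxes, and neither of its windows holds a heat shock element of the searched forms.

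**Figure D3:**
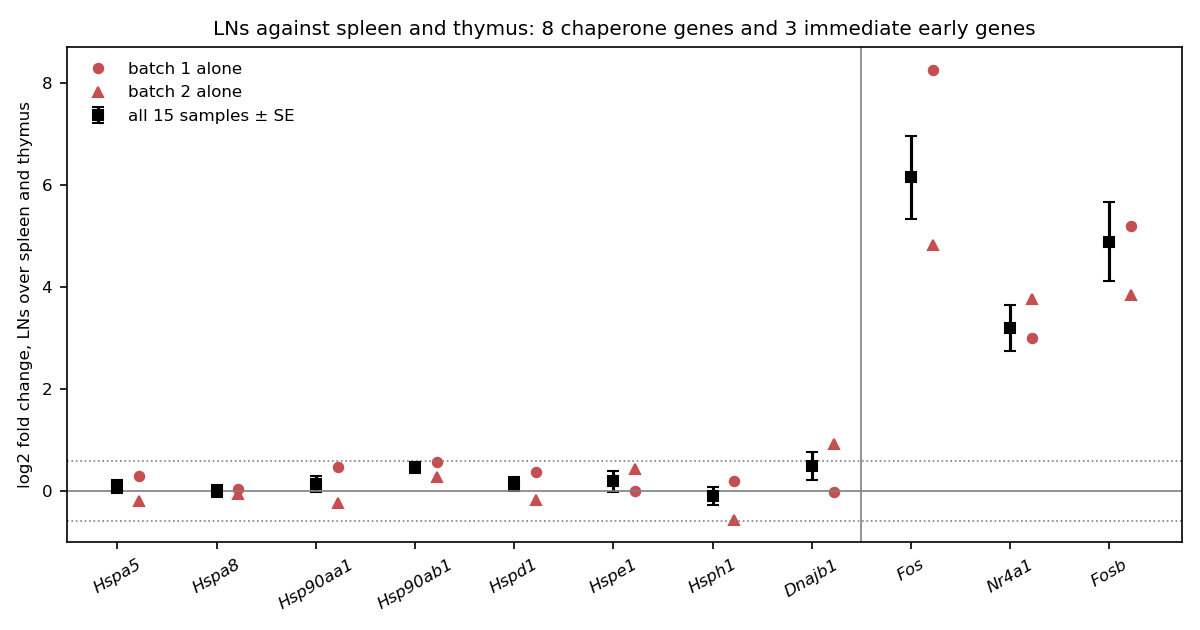
Log2 fold change of LNs over spleen and thymus for the 8 tested chaperone genes and for Fos, Nr4a1 and Fosb (squares, all 15 samples, bars ± SE; circles, batch 1 alone; triangles, batch 2 alone; dotted lines, a fold change of 1.5 in either direction). The chaperone genes lie between −0.10 and 0.49, and the 3 immediate early genes, taken for the lowest adjusted p of a list that spans −0.86 to 6.15 with a median of 0.52, between 3.21 and 6.15.

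Immediate early genes, transcription factors and regulators induced within minutes of a stimulus and often raised by tissue dissociation, were compared in the same samples. Of 20 tested genes on this list, edgeR called 6 higher and 0 lower in LNs than in spleen and thymus, beside 1.72% of all genes called. The median log2 fold change was 0.52 beside 0.02 over all genes, and DESeq2 called 7 and limma 5. Fos was at 9.98, 16.5, 4.99 and 4.62 CPM in mLN and 6.28, 23.3 and 4.96 CPM in iLN. In thymus it was at 0.247, 0, 0 and 0 CPM and in spleen at 0.888, 0, 0 and 0 CPM. Every LN sample of Fos thus lay above every sample of spleen and thymus, 6 of which had no count.

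Nr4a1, an orphan nuclear receptor induced by TCR signals, spanned 11.3 to 38.9 CPM in LNs and 0.451 to 7.93 CPM in spleen and thymus, with no overlap. Fosb spanned 2.69 to 32.8 CPM in LNs and 0 to 4.36 CPM in spleen and thymus, where spleen replicate 2 exceeded the lowest LN sample, iLN replicate 2. The log2 fold changes were 6.15 (SE 0.82, edgeR adjusted p = 0.000149) for Fos, 3.21 (SE 0.45, adjusted p = 0.000229) for Nr4a1 and 4.89 (SE 0.78, adjusted p = 0.000752) for Fosb, and those of Fos and Fosb depend on the prior count of the fit, since most spleen and thymus samples were at or near 0. All 3 were called in each of the 15 fits without 1 sample and in batch 1 alone, but not in batch 2 alone, where the log2 fold changes were 4.83 (Fos), 3.76 (Nr4a1) and 3.85 (Fosb), beside 8.26, 2.9996 and 5.21 in batch 1. The other called genes were Dusp1, Jun and Junb, named after their values were seen. iLN overlapped mLN in Fos and had at most 1 count of Hspa1a and Hspa1b together in a sample, whereas mLN replicate 1, with 50 such counts, had 9.98 CPM of Fos. Against spleen edgeR called 2 of the 20 genes in mLN (DESeq2 7, limma 0) and 3 in iLN (DESeq2 7, limma 1), beside 0.654% and 1.55% of all genes. Against thymus it called 5 in mLN (DESeq2 7, limma 4) and 4 in iLN (DESeq2 5, limma 1), beside 1.6% and 1.5% of all genes. It called 0 in thymus against spleen (4 at an unadjusted p under 0.05, DESeq2 4, limma 0) and 0 in iLN against mLN (2 at an unadjusted p under 0.05, DESeq2 2, limma 0).

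**Figure D4:**
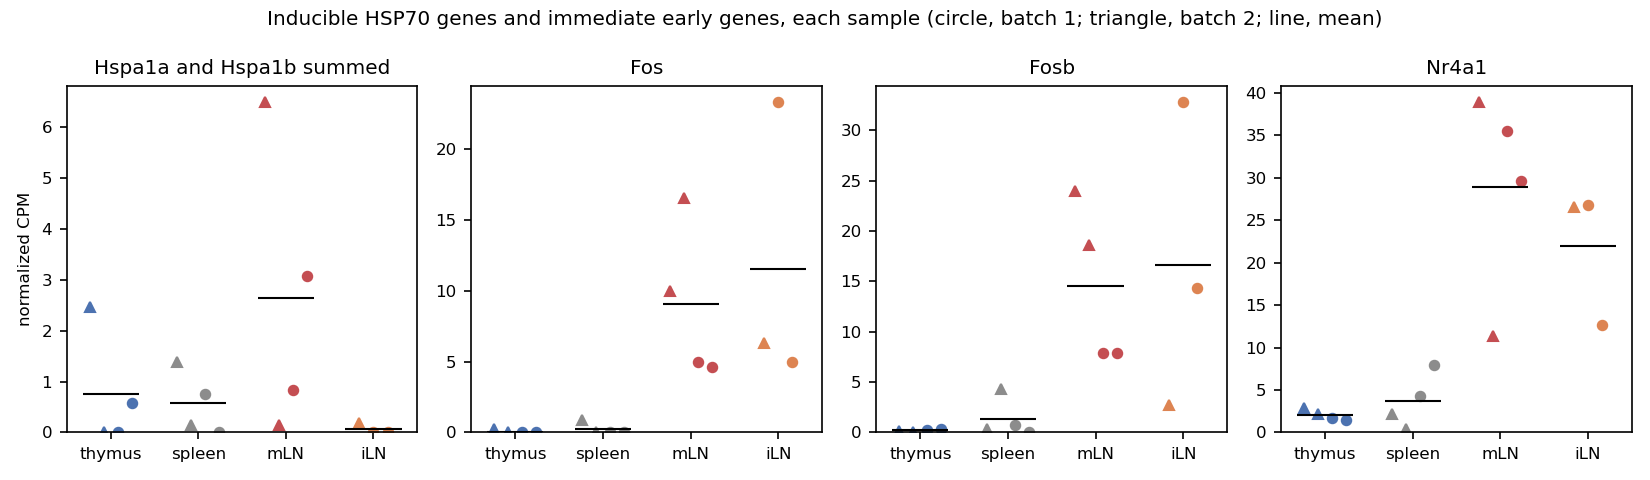
Normalized CPM of Hspa1a and Hspa1b summed and of the immediate early genes Fos, Fosb and Nr4a1 in each sample by tissue (circles, batch 1; triangles, batch 2; line, mean), each panel on its own axis. Fos and Nr4a1 of all 7 LN samples lie above those of all 8 spleen and thymus samples, while the summed pair is at 1 count or fewer in the 3 iLN samples and highest in mLN replicate 1.

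The other genes of protein folding were read from 7 lists with 119 genes, of which 107 were tested and 2 stand in 2 lists. In LNs against spleen and thymus edgeR called 0 of them, 23 had an unadjusted p under 0.05 (of all 13600 genes, 17.6% did), DESeq2 called 1 and limma 0. Their median log2 fold change was 0.06 beside 0.02 over all genes. The counts that follow are for this contrast unless another is named, and the genes named are up to 2 of each list with the lowest adjusted p.

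Of the other HSP70, HSP110, HSP90 and small HSP genes, edgeR called 0 of 10 tested (2 at an unadjusted p under 0.05, 0 by DESeq2, 0 by limma), with a median of 0.21. Hspa2, an HSP70 best known from testis, spanned 0 to 13.5 CPM in LNs and 0 to 1.25 CPM in spleen and thymus, and Hspa4, an HSP110, spanned 154 to 349 CPM in LNs and 144 to 236 CPM in spleen and thymus. Of the J-domain proteins of the cytosol, 0 of 14 were called (4 at an unadjusted p under 0.05, 0 by DESeq2, 0 by limma), and the median was −0.01. Dnaja4 spanned 1.88 to 10.98 CPM in LNs and 4.84 to 19.3 CPM in spleen and thymus, and Dnajb14 spanned 50.7 to 102 CPM in LNs and 38.8 to 79.1 CPM in spleen and thymus. For the co-chaperones of HSP70 and HSP90 the count was 0 of 21 (2 at an unadjusted p under 0.05, 0 by DESeq2, 0 by limma), with a median of −0.06. Sugt1, an HSP90 co-chaperone, spanned 22.5 to 39.7 CPM in LNs and 11.3 to 25.2 CPM in spleen and thymus. Ptges3 (p23), which stabilises the closed HSP90 dimer, spanned 57.4 to 74.6 CPM in LNs and 37.7 to 73.04 CPM in spleen and thymus.

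Among heat shock factors and their regulators edgeR called 0 of 8 tested (1 at an unadjusted p under 0.05, 0 by DESeq2, 0 by limma), with a median of 0.13. Sqstm1, an autophagy receptor, spanned 58.3 to 84.9 CPM in LNs and 23.4 to 82.9 CPM in spleen and thymus. The subunits of TRiC and prefoldin, which fold actin and tubulin, gave 0 of 14 (2 at an unadjusted p under 0.05, 0 by DESeq2, 0 by limma) and a median of 0.14, with Cct8 at 69.1 to 112 CPM in LNs and 52.5 to 85.3 CPM in spleen and thymus and Cct2 at 139 to 269.8 CPM in LNs and 124 to 203 CPM in spleen and thymus. Mitochondrial chaperones and proteases gave 0 of 15 (3 at an unadjusted p under 0.05, 0 by DESeq2, 0 by limma) and a median of −0.10. Of the subunits of the AAA protease of the inner membrane, Spg7 spanned 4.498 to 17.3 CPM in LNs and 11.3 to 35.1 CPM in spleen and thymus. Afg3l2 spanned 30.3 to 64.1 CPM in LNs and 43.4 to 75.7 CPM in spleen and thymus. The groups overlapped for each of these genes.

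ER chaperones and genes of the unfolded protein response also gave 0 of 27 (9 at an unadjusted p under 0.05, 1 by DESeq2, 0 by limma), with a median of 0.13. Ppp1r15a (GADD34), which restores translation after stress and is also an early response gene, was at 57.6, 25.8, 22.3 and 14.8 CPM in mLN and 34.3, 22.2 and 16.2 CPM in iLN. It was at 7.90, 8.09, 12.9 and 5.502 CPM in thymus and 3.95, 2.55, 16.9 and 7.73 CPM in spleen. The LN samples stood above those of thymus, and 1 spleen sample reached into their range. Its log2 fold change was 1.74 (SE 0.41, edgeR adjusted p = 0.0174), the lowest adjusted p of these 7 lists in this contrast and the gene that DESeq2 called. It was 0.82 in batch 1 and 2.87 in batch 2, and edgeR called it without spleen replicate 3 (2.07, adjusted p = 0.00354). Pdia3, a disulfide isomerase of glycoproteins, spanned 315 to 596 CPM in LNs and 249 to 349 CPM in spleen and thymus.

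Edem1, which directs misfolded glycoproteins to degradation, was the 1 gene of the 107 tested in these lists that edgeR called between pairs of tissues, in thymus against spleen and mLN against thymus, where 1.32% and 1.6% of all genes were called. Its level was 113, 133, 114 and 112 CPM in thymus and 231, 238, 220.02 and 232 CPM in spleen. In mLN it was 193, 187, 206 and 196 CPM and in iLN 190.01, 147 and 235 CPM. All 4 thymus samples were under all 11 others, and the log2 fold changes were −0.97 (SE 0.15, edgeR adjusted p = 0.00052) for thymus over spleen and 0.73 (SE 0.15, adjusted p = 0.00596) for mLN over thymus. In the other pairs of tissues edgeR called 0 of the 107 genes, with 20 (mLN against spleen), 22 (iLN against spleen), 13 (iLN against thymus) and 19 (iLN against mLN) at an unadjusted p under 0.05 (beside 12.2%, 16.4%, 16.5% and 13.8% of all genes). When each sample was left out, Edem1 was called in thymus against spleen in 15 of the 15 fits and in mLN against thymus in 5, with adjusted p from 0.00216 to 0.0308. Its log2 fold change of thymus over spleen was −1.01 in batch 1 and −0.95 in batch 2, and that of mLN over thymus 0.82 and 0.64. Neither comparison was called in a batch alone or by limma, and mLN against thymus was not called without the batch term. DESeq2 called 0 genes in mLN against spleen, 2 in iLN against spleen (Fkbp5 and Herpud1), 2 in iLN against thymus (Dnajb14 and Edem1) and 2 in iLN against mLN (Atf6 and Hspa14), beside 1.83%, 4.23%, 3.62% and 2.25% of its genes, named after their values were seen, and limma called 0 in each.

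**Figure D5:**
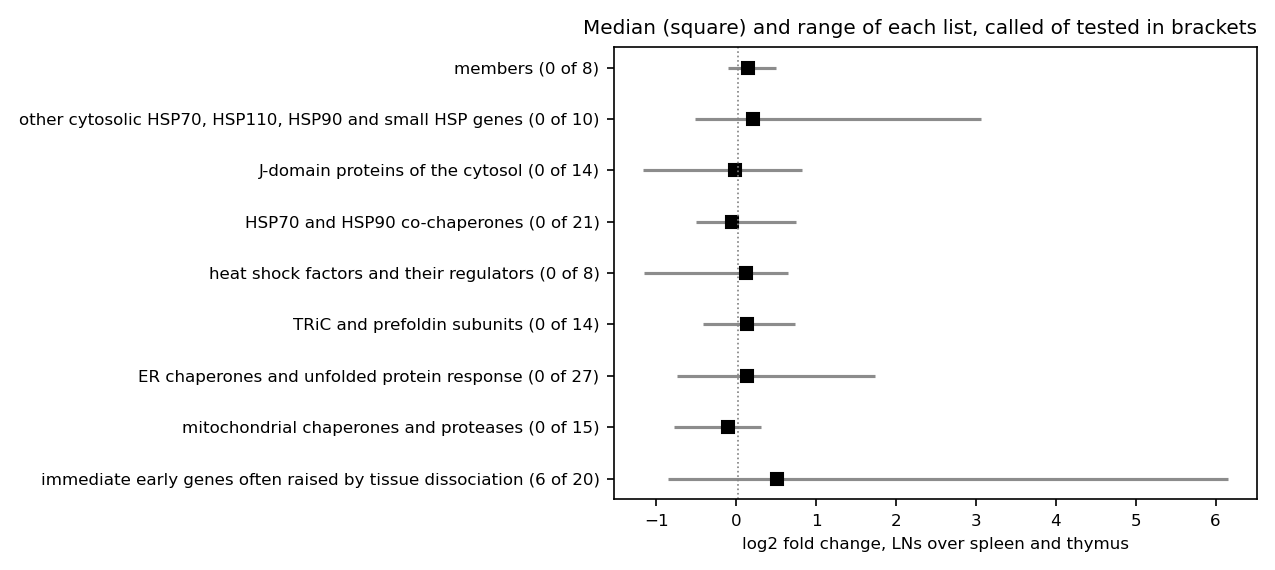
Median (square) and range (line) of the log2 fold change of LNs over spleen and thymus in the members, the 7 lists of other chaperone genes and the immediate early genes, with the number called of those tested in brackets. The dotted line is the median of all genes tested, 0.02, and the immediate early genes reach 6.15.

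Genes most like a member across the samples were found by the Pearson's r of log2(CPM + 1) over the 15 samples after the batch mean of each gene was subtracted, among 10138 tested genes with a mean of at least 5 CPM. The r is a description, and all genes compared share the same libraries and depths. The 5 named are the highest of 10138 genes over 15 samples, and how high an r arises by chance was not tested. For Hspa5 the 5 highest were Man1a2 (0.86), Cyp4v3 (0.82), Mfap1a (0.80), Pomp (0.79) and Pip4k2a (0.78). For Hsp90aa1 they were Trim33 (0.82), Hnrnpa1 (0.80), Fam118b (0.79), Thumpd1 (0.78) and Hnrnpa2b1 (0.77). For Hspa1b, which had counts in 5 of the 15 samples, they were Rbbp4 (0.80), Skp1a (0.78), Trbv1 (0.78), Zmat1 (0.77) and Arpc5 (0.76). Of its 45.9 counts, mLN replicate 1 held 23.8 and mLN replicate 4 held 16, so that these r rest mainly on those samples.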

How the data were processed

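Sorted iNKT cells were profiled by polyA RNAseq with paired-end reads. Per the labels, the authors trimmed reads with cutadapt 1.7.1 and ran RSEM 1.2.31 with Bowtie2 2.2.9 on GRCm38. The expected count that the authors deposited divides fragments with several possible genes among them. TPM, as deposited by the authors, divides it by effective length and scales every sample to the same sum. The authors also deposited FPKM, scaled by the fragments of a sample, which was not used here.

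Expected counts were rounded, filtered with filterByExpr by tissue, normalized by TMM and fitted with edgeR 4.0.16 (R 4.3.3), by the quasi-likelihood test with robust estimation and with tissue and batch as terms. p-values were adjusted over 13600 genes by Benjamini-Hochberg. The fit was tested on simulated data, where many genes given a change were not called. Between replicates the chi-square per degree of freedom ran from 7.21 to 213, above counting error. Labels call the samples biological replicates without saying whether a sample is 1 mouse or a pool. Alternatives were DESeq2 1.42.0, limma 3.58.1 on log2 TPM (pseudocounts 1 and 0.1), RLE factors, no filter, a filter of at least 10 counts in all samples, fits without batch, a block of replicate numbers, each batch alone, Hspa1a and Hspa1b summed, an adjusted p of 0.05 alone, and each sample left out. Summing Hspa8 and Gm26825 was chosen after seeing the data.

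Members and lists were chosen with earlier results of these data known. Genes named are the 10 members, up to 3 called genes of each list in LNs against spleen and thymus or else the 2 with the lowest adjusted p, up to 2 further called chaperone genes per pair of tissues, the 5 genes most like each of Hspa1b, Hspa5 and Hsp90aa1, and the most abundant gene of lists for other cells. A gene that this rule names is not reported here. Sums, intervals, sequences and figures used Python 3.11.15 with matplotlib 3.10.9, scipy 1.17.1, pandas 2.3.3 and numpy 2.4.6. Shared sequence was measured as windows as long as a read. iLN replicate 1 was not analysed here.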

Additional observations from a re-analysis of the deposited data

Results flagged for a closer look

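In 30 sets of 4 samples (each of the 10 genes in thymus, spleen and mLN) the highest or lowest sample was compared with the others by its gap to the nearest sample over the whole range. 6 samples stood apart, where chance gives about 1 in 20 sets, and iLN with 3 samples was not tested. That rate does not hold for Hspa1a and Hspa1b, which gave 4 of the 6, since a set with counts in 1 sample and 0 in the others always stands apart. Hspa1a stood at 2.47 CPM (20 counts) in thymus replicate 1, with the other thymus samples at or under 0.165 CPM, and at 1.38 CPM (14 counts) in spleen replicate 1, with the other spleen samples at or under 0.150 CPM. Hspa1b stood at 0.404 CPM (2.13 counts) in thymus replicate 4 and at 0.748 CPM (3 counts) in spleen replicate 3, with 0 in the other samples of each tissue. These 4 values rest on few counts. Hsp90aa1 was at 218 CPM in mLN replicate 3, above 142 to 154 CPM in the other mLN samples. Dnajb1 was at 28.4 CPM in spleen replicate 2, under 62.5 to 68.7 CPM in the other spleen samples. What set these samples apart was not tested.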

How the results depend on the processing

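Genes called in LNs against spleen and thymus were 234 in the reported fit, but 489 with DESeq2, 532 with no filter, 103 with limma on log2(TPM + 1), 81 with limma on log2(TPM + 0.1), 579 at an adjusted p under 0.05 alone, 95 in batch 1 alone and 2 in batch 2 alone. In thymus against spleen 179 genes were called in the reported fit, but 406 with DESeq2, 393 with no filter, 100 with limma on log2(TPM + 1), 86 with limma on log2(TPM + 0.1), 353 at an adjusted p under 0.05 alone, 45 in batch 1 alone and 27 in batch 2 alone. In mLN against spleen 89 genes were called in the reported fit, but 263 with DESeq2, 273 with no filter, 29 without the batch term, 15 with limma on log2(TPM + 1), 11 with limma on log2(TPM + 0.1), 186 at an adjusted p under 0.05 alone, 0 in batch 1 alone and 0 in batch 2 alone. In iLN against spleen 211 genes were called in the reported fit, but 588 with DESeq2, 544 with no filter, 129 without the batch term, 87 with limma on log2(TPM + 1), 59 with limma on log2(TPM + 0.1), 530 at an adjusted p under 0.05 alone, 81 in batch 1 alone and 4 in batch 2 alone. In mLN against thymus 217 genes were called in the reported fit, but 426 with DESeq2, 435 with no filter, 107 with limma on log2(TPM + 1), 98 with limma on log2(TPM + 0.1), 388 at an adjusted p under 0.05 alone, 55 in batch 1 alone and 31 in batch 2 alone. In iLN against thymus 204 genes were called in the reported fit, but 503 with DESeq2, 480 with no filter, 123 without the batch term, 111 with limma on log2(TPM + 1), 96 with limma on log2(TPM + 0.1), 468 at an adjusted p under 0.05 alone, 114 in batch 1 alone and 7 in batch 2 alone. In iLN against mLN 64 genes were called in the reported fit, but 302 with DESeq2, 279 with no filter, 40 without the batch term, 27 with limma on log2(TPM + 0.1), 183 at an adjusted p under 0.05 alone, 23 in batch 1 alone and 3 in batch 2 alone. With each sample left out in turn, the number of genes called ran from 114 to 222 in thymus against spleen, 24 to 99 in mLN against spleen, 108 to 267 in iLN against spleen, 125 to 235 in mLN against thymus and 104 to 236 in iLN against thymus.

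Members called were 0 in every comparison of the reported fit and 1, Hsp90ab1, with DESeq2 in thymus against spleen, mLN against spleen and iLN against spleen, with no filter in thymus against spleen, mLN against spleen and iLN against spleen, at an adjusted p under 0.05 alone in LNs against spleen and thymus, thymus against spleen, mLN against spleen and iLN against spleen, with RLE factors in mLN against spleen and iLN against spleen and with at least 10 counts in every sample in mLN against spleen and iLN against spleen. With each sample left out the number of members called ran from 0 to 1 in thymus against spleen, mLN against spleen and iLN against spleen and was 0 in the other comparisons. The Hsp90ab1 change of LNs over spleen and thymus, 0.47 on the log2 scale, was called only at an adjusted p under 0.05 alone. Over the 28 alternatives its adjusted p in this contrast ran from 0.00211 to 0.56. The lowest value passed the adjusted p threshold of 0.01, and that setting missed a call by the fold change threshold of 1.5. The log2 fold change of LNs over spleen and thymus turned its sign for Hsph1 (0.20) and Dnajb1 (−0.0178) with batch 1 alone, Hspa5 (−0.18), Hspa8 (−0.0595), Hsp90aa1 (−0.23) and Hspd1 (−0.16) with batch 2 alone, Hspa8 (−0.0235) with at least 10 counts in every sample and Hsph1 (0.0112) with no batch term. Over the fits that left out 1 sample it ran from −0.0219 to 0.15 for Hspa5, −0.0733 to 0.10 for Hspa8, −0.0102 to 0.34 for Hspe1 and −0.18 to 0.0393 for Hsph1. Of the 224 settings of the 8 log2 fold changes, 205 kept direction and side of the threshold.

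With blocks of same-numbered replicates instead of batch, the genes called were 203 (LNs against spleen and thymus), 174 (thymus against spleen), 70 (mLN against spleen), 175 (iLN against spleen), 204 (mLN against thymus), 160 (iLN against thymus) and 62 (iLN against mLN) and the members called 0 in each. The block gave log2 fold changes of 0.0929 for Hspa5, 0.0253 for Hspa8, 0.18 for Hsp90aa1, 0.47 for Hsp90ab1, 0.13 for Hspd1, 0.18 for Hspe1, −0.0443 for Hsph1 and 0.61 for Dnajb1. Same-numbered samples of different tissues carry the same WT label, and the labels do not say whether it names the same mouse or pool. Whether the numbers pair samples is not shown: same-numbered samples had a mean r across genes of 0.138 (lowest 0.000579, 21 pairs), other samples of a batch 0.125, 11 of 15 samples were most like 1 of their own number, and genes are not independent replicates. Where a setting tests fewer samples or other thresholds the change follows from its construction, and otherwise the cause was not tested. Depth limits Hspa1a and Hspa1b, since 3 counts in thymus replicate 2 are 2.21 CPM.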
